A study of Mus musculus with 7 samples.

Results

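The genes described here encode 9 enzymes or enzyme subunits of the mitochondrial tricarboxylic acid (TCA) cycle that lie outside the 2-oxoacid dehydrogenase complexes: Cs, Idh2, Idh3a, Idh3b, Idh3g, Sucla2, Suclg1, Fh1 and Mdh2. They were taken by name, and every probe set whose only gene symbol in the platform annotation was one of these names was kept. This gave 16 probe sets for the 9 genes, out of 20380 probe sets with 1 symbol for 12393 genes. RNA of LSK cells from mouse bone marrow was measured on 7 arrays, 1 for each sample. LSK is the gate without mature lineage markers and with Sca-1 and c-Kit, and holds blood stem cells and early progenitors. The sample titles call them HSCs, while the sort was for LSK cells. The 4 Lkb1 KO samples (numbers 4 to 7) came from Lkb1 L/L, rosa26CreERT2 mice, and the 3 Lkb1 WT samples (numbers 5 to 7) from Lkb1 L/L mice without the Cre. Mice of both groups were C57BL/Ka-CD45.2:Thy-1.1 with the floxed gene and received 5 days of tamoxifen, and cells were sorted 1 day after the last dose. The Rosa26 locus is active in most cell types, so deletion was not limited to blood cells, and Cre was present in the KO mice alone. Whether each sample was its own animal is not stated, and the p-values therefore reflect variation among these 7 samples, possibly of technical origin.

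In the TCA cycle, acetyl groups enter by condensation with oxaloacetate to form citrate, are oxidized to carbon dioxide, and yield reduced cofactors for the respiratory chain. Citrate synthase (Cs) opens the cycle, isocitrate dehydrogenases (Idh3a, Idh3b and Idh3g for the NAD-dependent enzyme, Idh2 for the NADP-dependent one) carry out its first oxidation, succinyl-CoA ligase (Sucla2 and Suclg1) makes ATP or GTP, and fumarase (Fh1) and malate dehydrogenase (Mdh2) regenerate oxaloacetate. Lkb1 (gene Stk11) is the kinase that activates AMPK, a sensor of cellular energy, and the comparison asks what changes in LSK cells soon after it is lost.

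None of the 9 genes passed the threshold in KO against WT, in either direction, when each was read from its brightest probe set. The largest differences were in Idh3a, the catalytic subunit of NAD-dependent isocitrate dehydrogenase, which was 1.37-fold in KO relative to WT, and in Fh1, which was 1.29-fold, both with groups that did not overlap. The smallest was in Cs, at 0.998-fold. Of all probe sets of the 9 genes, only the dimmer one of Mdh2 passed, at 1.47-fold, in a fit with every probe set as its own row, and it did not pass in any of the 7 fits without 1 sample. Values are log2(signal + 16) after quantile normalization, and a difference is the KO mean minus the WT mean on that scale, which understates the change of dim probe sets. Tests were made with limma across 8077 genes with Benjamini-Hochberg adjusted p and a threshold of 0.05.

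As a group the 9 genes had 0 higher and 0 lower past the threshold, where 2.46% of all tested genes were higher and 2.95% lower. At an unadjusted limma p under 0.05, 2 were higher (Idh3a and Fh1) and 0 lower, against 11.7% and 13.6% of all tested genes. The two-sided exact permutation test gave the smallest p it can reach here, 0.0286, for Idh3a, Idh3b and Fh1. The KO values lay above the WT values without overlap for 4 of the 9 (Idh3a, Idh3b, Sucla2 and Fh1), against 11.4% of all tested genes. The difference was above 0 for 8 of the 9, against 47.6% of all tested genes, and the median of the 9 was 0.17 against -0.02 for all. Ranked among the differences of all tested genes from lowest to highest, the 9 stood above 51.9% (Cs) to 94.9% (Idh3a) of them, with Fh1 above 92.0% and Idh2 above 87.2%. These counts and medians are descriptions of genes that were chosen with earlier results of these data known, and they carry no test.

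**Figure D1:**
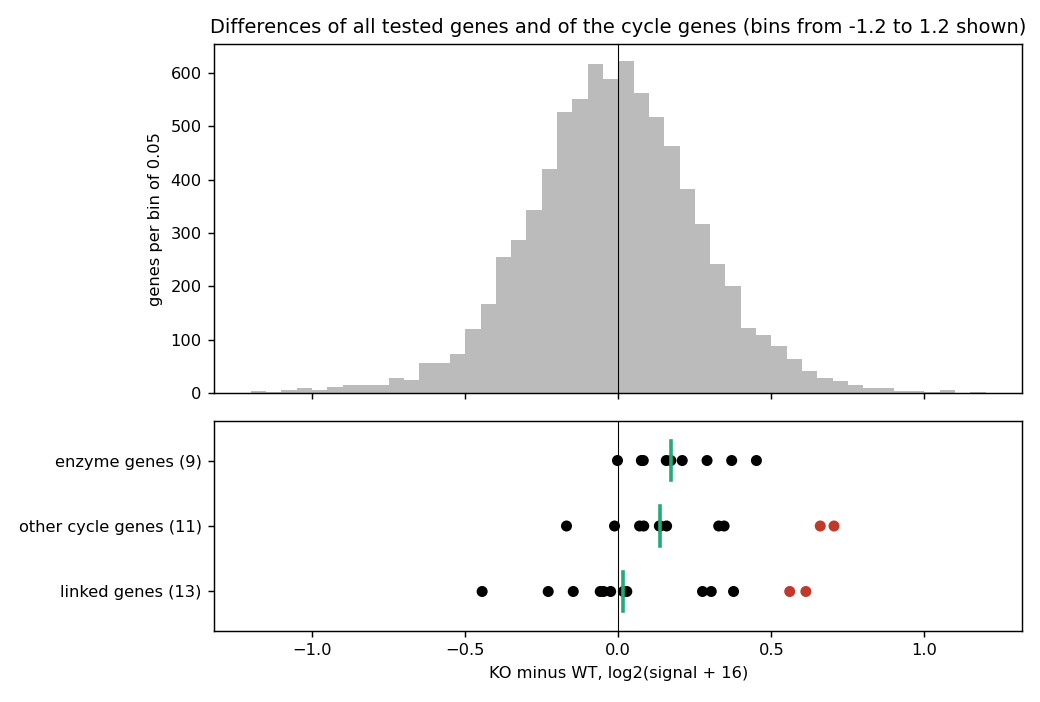
Top, number of tested genes per bin of the KO minus WT difference in log2(signal + 16), shown from -1.2 to 1.2. Bottom, 1 point per gene for the 9 enzyme genes, 11 other cycle genes and 13 linked genes, with red for limma adjusted p under 0.05 and a green bar at the median (0.17, 0.14 and 0.02). The 9 enzyme genes run from 0.00 to 0.45 with none in red, and 2 genes in each of the other lists are red.

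The arrays were not equally bright, and this sets what the differences are relative to. Trimmed mean signals ranged from 360.4 to 425.9 on KO arrays and from 228.6 to 340.5 on WT arrays (exact permutation p = 0.0286), and the deposited signals of tested genes were higher in KO by a median of 0.34. For Actb, the control signal at the 3' end was divided by that at the 5' end, which reflects how complete the RNA copies were. This ratio ranged from 11.4 to 12.3 on KO arrays and from 12.6 to 13.1 on WT arrays (exact permutation p = 0.0571). Among markers of other cells of the marrow, 10 of 12 granulocyte and monocyte genes fell in KO (among them the neutrophil granule genes Ngp at -1.89 and Camp at -1.83, limma adjusted p = 0.00702 for each), while the other 2, Itgam at 0.40 (limma adjusted p = 0.0657) and Elane at 0.41 (limma adjusted p = 0.121), had KO above WT without overlap. The summed quantile-normalized signal of the 12 was 14412 to 18452 in KO against 34856 to 48597 in WT. Of 8 tested erythroid genes, 7 were below 0 (median of the 8, -0.35) and only the globin gene Hba-a2 was above 0. Ermap fell by 1.22 (limma adjusted p = 0.0225) and Hba-a2 rose by 0.43 (limma adjusted p = 0.0328), and the others did not pass. The summed signal over 9 measured erythroid genes was 3711 to 4803 in KO against 5189 to 6779 in WT. None of 5 megakaryocyte genes (Gp1bb at -0.34 and Vwf at -0.45 with the lowest p) and none of 2 tested B cell genes (Cd79b at -0.12, Vpreb1 at 0.07) passed in limma, and of the stromal genes Col1a2, the only one tested, fell by 0.95 (limma adjusted p = 0.0428). Of 4 measured T cell genes, Cd3e and Cd3g were above background on 0 of 7 arrays, Cd3d on 4 and Cd8a on 5. Of 5 measured B cell genes, Cd79a and Pax5 were above it on 0 arrays and the other 3, Ms4a1 among them, on 7. Of 6 stromal and endothelial genes, Col1a1 was above it on 0 arrays, Cxcl12 and Cdh5 on 4, Lepr and Kdr on 5 and Col1a2 on 7. Kit, which defines the gate, was above background on 7 of 7 arrays and fell by 0.43 (limma adjusted p = 0.0467). The stem cell factor gene Hlf fell by 0.84 (limma adjusted p = 0.0107), with 2 of 7 tested LSK genes lower and none higher. With signals as deposited the difference of Kit was 0.012 (limma adjusted p = 0.971), so that its fall was absent there. In the same scaling Hlf was at -0.40 (limma adjusted p = 0.176) and Col1a2 at -0.56 (limma adjusted p = 0.0984). The other cell markers named here as fallen or risen still passed in it. Of the 7 fits without 1 sample, Ngp, Camp and Hlf passed in 7, Ermap in 3, Col1a2 in 1, and Kit (limma adjusted p from 0.0558 to 0.113) and Hba-a2 (limma adjusted p from 0.0582 to 0.0933) in 0. The Sca-1 gene was not analysed here. The part of brightness, RNA completeness and cell makeup in the differences of the 9 enzyme genes was not tested. In sorted bulk RNA, fewer cells of a type and less RNA per cell cannot be told apart. Stk11 was at -0.56 ± 0.19 (SE; limma adjusted p = 0.117), and since the position of its probe set relative to the deleted part is not known here, this does not check the labels.

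All 16 probe sets of the 9 genes passed the filter on dim probe sets and exceeded the background level of 13.64 signal units on 7 of 7 arrays. The dimmest was 1 of the 3 for Idh3a, with deposited signals of 50.2 to 78 in KO and 34.9 to 47.6 in WT.

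Citrate synthase, which joins acetyl-CoA to oxaloacetate, was measured by 3 probe sets. The brightest read 12.04, 12.04, 12.07 and 11.96 on arrays KO 4 to KO 7, and 11.96, 12.12 and 12.02 on arrays WT 5 to WT 7. The groups overlapped almost fully, and the difference was 0.00 (95% interval -0.20 to 0.19, limma adjusted p = 0.988), so a fold outside 0.871 to 1.14 lies beyond its interval. The next probe set differed by 0.10, with the lowest KO value just under the highest WT value. The dimmest probe set gave 7.93, 8.11, 7.94 and 7.87 in KO and 7.27, 7.74 and 7.70 in WT. Here each KO array was above each WT array, with a difference of 0.39 (limma adjusted p = 0.136 in the fit with every probe set as its own row, exact permutation p = 0.0286). The probe sets of Cs thus gave different answers, and the mean of the 3 differed by 0.16 (limma adjusted p = 0.334).

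NAD-dependent isocitrate dehydrogenase is built from a catalytic subunit (Idh3a) and 2 regulatory subunits (Idh3b and Idh3g). Idh3a read 9.66, 9.72, 9.73 and 9.74 on arrays KO 4 to KO 7, and 9.50, 9.09 and 9.19 on the WT arrays. The KO arrays lay close together and above the 3 WT arrays, of which WT 5 was the highest. The difference was 0.45 ± 0.11 (SE; 95% interval 0.20 to 0.71), a fold of 1.37 (1.14 to 1.63), with limma adjusted p = 0.0562 and exact permutation p = 0.0286. Without each sample in turn the limma adjusted p ran from 0.0496 to 0.136, and it passed only without WT 5. The other 2 Idh3a probe sets, much dimmer, differed by 0.39 and 0.17 with overlapping groups.

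The regulatory subunits differed less. Idh3b was at 11.49 ± 0.014 (SD, n = 4) on KO arrays and 11.41 ± 0.062 (SD, n = 3) on WT arrays, a difference of 0.08 (95% interval -0.10 to 0.27, limma adjusted p = 0.567). Its groups did not overlap, by 0.011 between the lowest KO and the highest WT array, and its other probe set, of nearly the same brightness, overlapped with a difference of 0.01. Idh3g differed by 0.08 in its brighter probe set (95% interval -0.13 to 0.28, limma adjusted p = 0.645), where KO 4 was the highest array. In its dimmer probe set Idh3g read 12.11, 12.04, 11.90 and 11.94 in KO and 11.78, 11.59 and 11.81 in WT. These did not overlap, with a difference of 0.27 (limma adjusted p = 0.169 in the fit with every probe set as its own row).

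Idh2, the mitochondrial NADP-dependent isocitrate dehydrogenase, had 1 probe set, which read 9.97, 9.97, 9.76 and 10.18 in KO and 9.73, 9.42 and 9.90 in WT. The highest WT array, WT 7, lay above the lowest KO array, KO 6. The difference was 0.29 ± 0.14 (SE; 95% interval -0.04 to 0.62, limma adjusted p = 0.249).

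Succinyl-CoA ligase pairs an alpha subunit (Suclg1) with a beta subunit that sets whether ATP (Sucla2) or GTP (Suclg2) is formed. Sucla2 read 11.49, 11.59, 11.67 and 11.72 in KO and 11.48, 11.30 and 11.44 in WT. KO 4 exceeded WT 5 by only 0.013, so the groups were separate by a margin smaller than the spread within either. The difference was 0.21 ± 0.10 (SE; 95% interval -0.01 to 0.43, limma adjusted p = 0.222). Suclg1 read 10.32, 10.30, 10.12 and 10.55 in KO and 9.71, 10.29 and 10.45 in WT. Its WT values spread more than those of any other probe set here, through WT 5, and the difference of 0.17 ± 0.18 (SE; 95% interval -0.25 to 0.59, limma adjusted p = 0.596) was -0.05 without that sample. Suclg2 was at -0.01 (limma adjusted p = 0.98).

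Fumarase hydrates fumarate to malate. Fh1 read 11.86, 11.88, 11.68 and 11.72 in KO and 11.50, 11.26 and 11.48 in WT. The groups were apart by 0.183, the widest gap among the brightest probe sets of the 9 genes. The difference was 0.37 ± 0.10 (SE; 95% interval 0.14 to 0.61), a fold of 1.29 (1.10 to 1.52), with limma adjusted p = 0.0705 and exact permutation p = 0.0286. Without each sample in turn its limma adjusted p ran from 0.1 to 0.168.

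Mitochondrial malate dehydrogenase oxidizes malate to oxaloacetate. Its gene Mdh2 had 2 bright probe sets that did not give the same difference. The brighter read 13.003, 12.86, 13.09 and 13.16 in KO and 12.93, 12.85 and 12.84 in WT, where KO 5 lay among the WT arrays. Its difference was 0.16 ± 0.10 (SE; 95% interval -0.07 to 0.38, limma adjusted p = 0.363). The other read 12.21, 12.17, 12.34 and 12.25 in KO and 11.89, 11.61 and 11.56 in WT. On this probe set each KO array was above each WT array by at least 0.277, and the difference was 0.55 ± 0.11 (SE; 95% interval 0.30 to 0.81). It was the only 1 of the 16 past the threshold (limma adjusted p = 0.039 over 12449 probe sets, of which 2.02% were higher). Without each sample in turn the difference ran from 0.49 to 0.65 and the limma adjusted p from 0.0558 to 0.108, so that it passed in 0 of 7 fits. In that fit with every probe set as its own row, 15 of the 16 lay above 0, 5 had an unadjusted p under 0.05 and all 5 were higher (12.2% of all probe sets were higher at that level), and 7 did not overlap (11.6%).

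**Figure D2:**
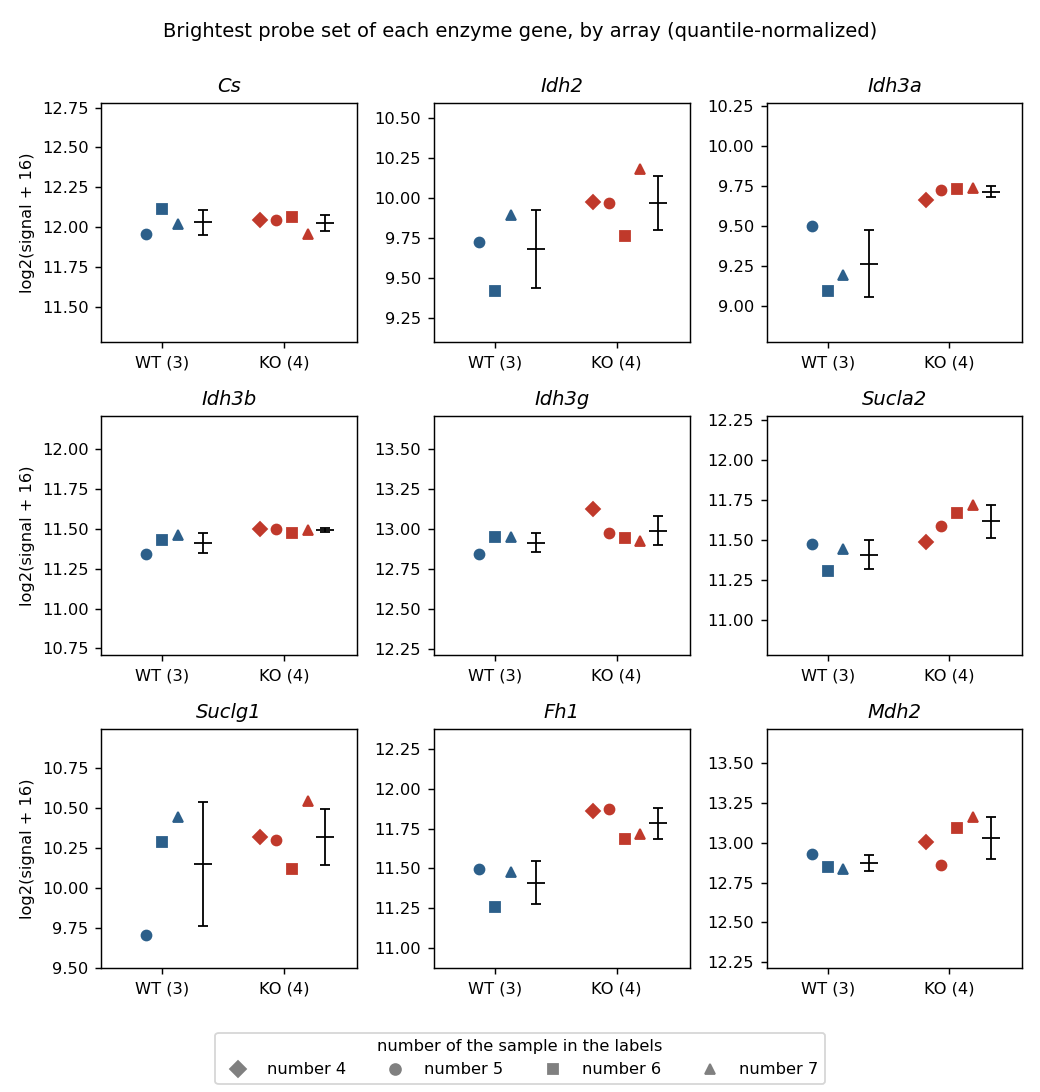
Quantile-normalized log2(signal + 16) of the brightest probe set of each of the 9 genes, 1 point per array, with bars for mean ± SD at the right of each group. All panels span 1.5 log2 units. KO arrays lie above WT arrays for Idh3a, Fh1, Idh3b and Sucla2, the last of these by 0.013.

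The disagreement between probe sets can be read within each array, where the scaling of the array largely cancels. The dimmer Mdh2 probe set minus the brighter was -0.78 ± 0.094 (SD, n = 4) on KO arrays and -1.18 ± 0.13 (SD, n = 3) on WT arrays, with no overlap. The same held for the dimmest Cs probe set against the brightest, at -4.06 ± 0.091 (SD, n = 4) on KO arrays and -4.46 ± 0.20 (SD, n = 3) on WT arrays, and for the dimmer Idh3g probe set, at -0.99 ± 0.045 (SD, n = 4) and -1.19 ± 0.15 (SD, n = 3). For each of these 3 genes the exact permutation p was 0.0286, the smallest possible, and 0.0667 after Benjamini-Hochberg adjustment over the 7 such comparisons, so that none passed. The other 4, for Cs, Idh3a (2) and Idh3b, overlapped between the groups. The comparison was made after the disagreement had been seen.

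**Figure D3:**
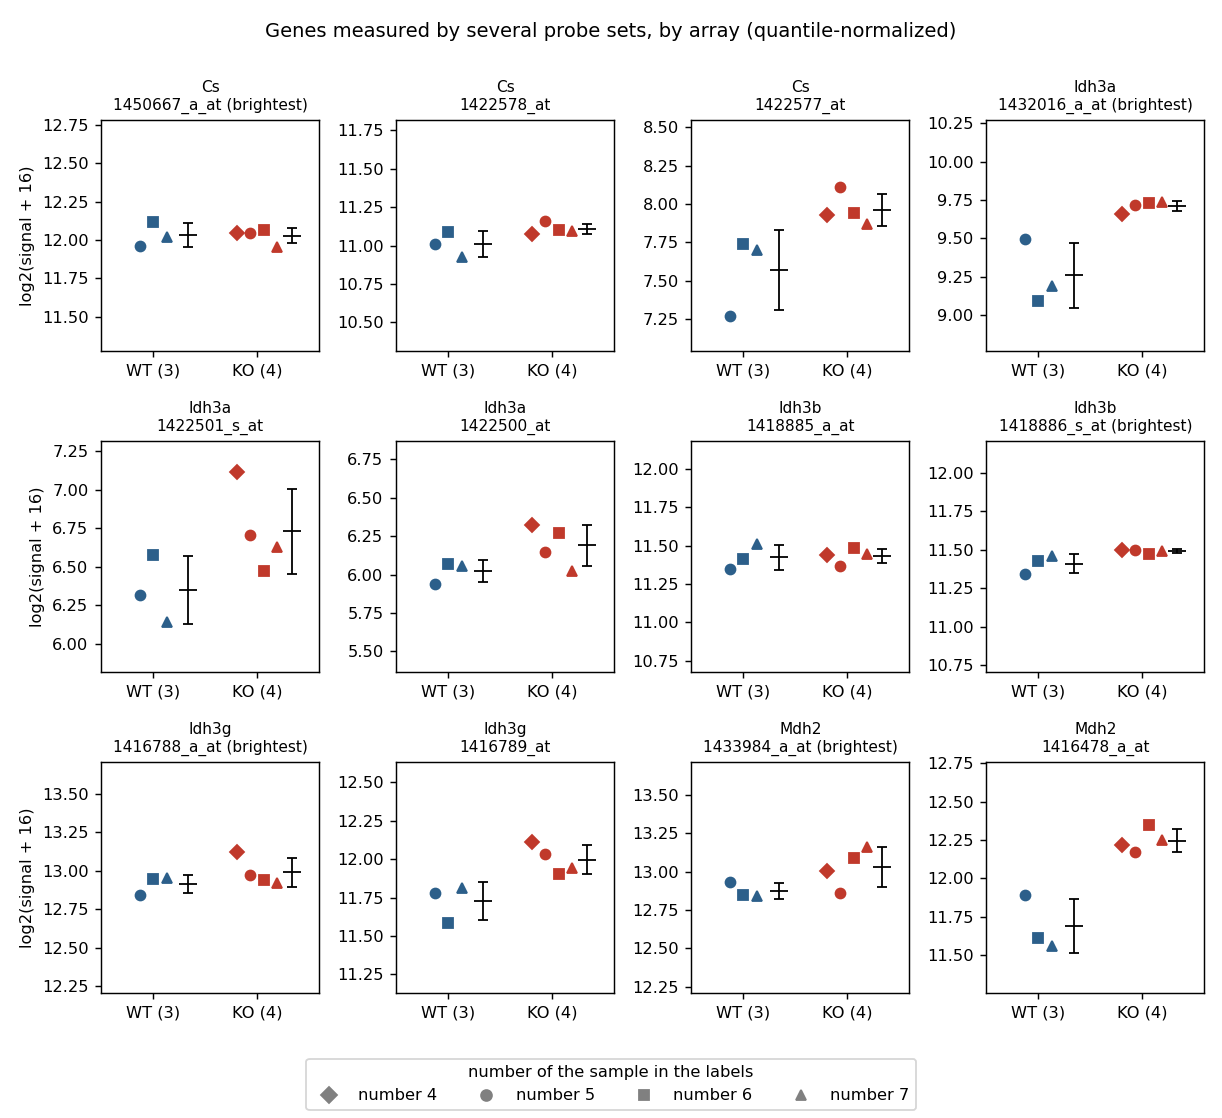
Quantile-normalized log2(signal + 16) of each probe set of the 5 genes with more than 1, 1 point per array, with bars for mean ± SD. All panels span 1.5 log2 units. In Cs, Idh3g and Mdh2 a dimmer probe set separates KO from WT while the brightest does not.

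Promoter sequences are shown for Fh1 and Mdh2, which hold the widest gaps between the groups, and for Cs, which had the smallest difference. They are the 250 bases before the transcription start in RefSeq's GRCm38.p6 table, where 8 of the 9 genes matched and Idh3a did not. They lie at chr1:175625636-175625885 on the minus strand for Fh1, chr5:135778399-135778648 on the plus strand for Mdh2 and chr10:128337477-128337726 on the plus strand for Cs. Capitals mark matches to any of the 7 motifs searched on both strands.
Fh1: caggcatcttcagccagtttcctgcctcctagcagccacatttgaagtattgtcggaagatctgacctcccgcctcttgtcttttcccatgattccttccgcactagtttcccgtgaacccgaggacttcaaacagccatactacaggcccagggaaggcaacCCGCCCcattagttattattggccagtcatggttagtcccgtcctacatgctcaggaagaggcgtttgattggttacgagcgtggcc
Mdh2: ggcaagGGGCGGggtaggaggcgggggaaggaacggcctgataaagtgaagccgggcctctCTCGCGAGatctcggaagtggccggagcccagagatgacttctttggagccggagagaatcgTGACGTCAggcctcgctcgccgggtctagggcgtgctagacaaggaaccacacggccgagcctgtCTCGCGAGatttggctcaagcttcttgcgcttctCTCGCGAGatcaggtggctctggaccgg
Cs: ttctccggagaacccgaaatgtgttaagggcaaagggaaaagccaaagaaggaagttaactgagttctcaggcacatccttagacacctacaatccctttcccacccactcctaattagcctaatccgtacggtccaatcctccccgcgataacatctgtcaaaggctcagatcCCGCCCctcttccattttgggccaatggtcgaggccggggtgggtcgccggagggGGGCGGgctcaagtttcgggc
The motifs were GGGCGG (the Sp1 box, in 5 of the 8 promoters and 32.7% of all 32851 promoters of the table), CCGGAA (the core of ETS factor sites, in 1, Idh3g, and 12% of all), TGACGTCA (the cAMP response element, in 1, Mdh2, and 1.55% of all) and CACGTG (the E-box, in none and 6.02% of all). TCAAGGTCA (the site of estrogen-related receptors, 0.387% of all) and GCATGCGC (the core of NRF1 sites, 2.26% of all) were in none of the 8. The palindrome CTCGCGAG, added after the sequence was seen, occurred 3 times in the Mdh2 promoter and was in 0.761% of all promoters. None of the motifs shares bases with another in these 3 sequences. The GC content of the 8 ran from 46.8% to 67.2%, with a median of 52.4% over all promoters. A match describes letters in this window and says nothing of binding.

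The choice of scaling moved the level of all differences. With the signals as deposited, 5 of the 9 genes passed as higher in limma (Idh3a at 0.89, Fh1 at 0.75, Idh2 at 0.73, Suclg1 at 0.60 and Sucla2 at 0.59), in a fit where 17% of all genes were higher and the median of all genes was 0.34. In the deposited signals KO lay above WT without overlap for 15 of the 16 probe sets, all but the brightest of Cs. Read from the brightest probe set of each gene, this held for all of the 9 but Cs, and for 32.7% of all tested genes. Less the median of all genes, the median of the 9 was 0.25 as deposited, 0.25 with median centring, 0.20 with cyclic loess and 0.19 after quantile normalization. All 9 differences were above the median of all tested genes in each of these 4 scalings, of which the deposited and median-centred ones differ only by a constant per array, and there Cs exceeded that median by 0.00070. The number above it was 7 with the Actb ratio in the model, 8 without KO 6 and 7 without WT 5. The Actb ratio separated KO from WT without overlap, so the model with it can hardly tell it from genotype. With median centring Idh3a and Fh1 passed, where 545 of 8070 tested genes were higher.

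**Figure D4:**
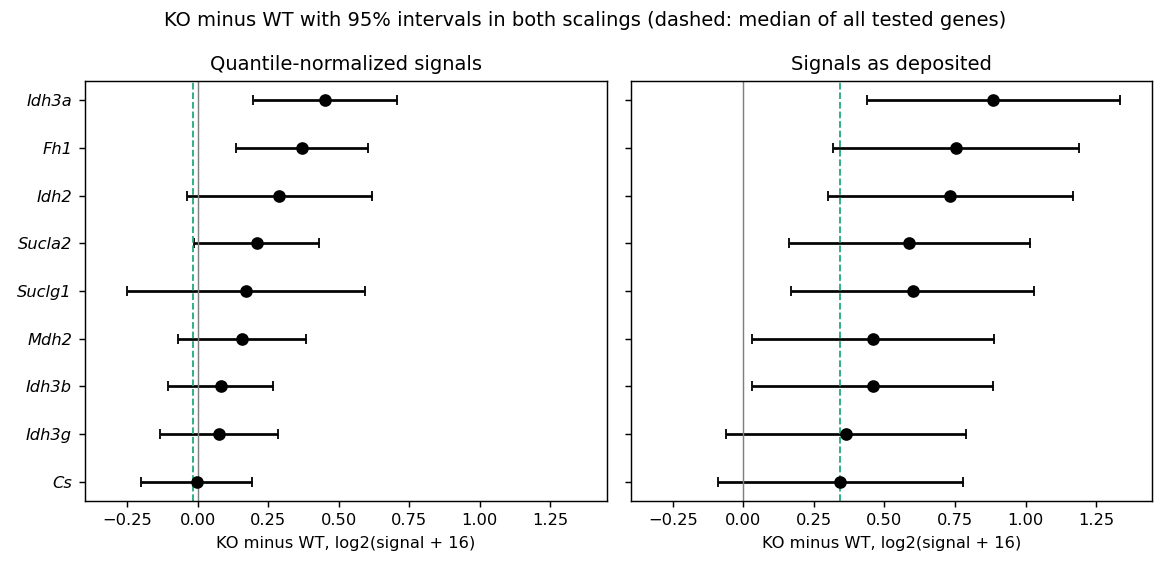
KO minus WT difference in log2(signal + 16) of the brightest probe set of each gene with its 95% interval from limma, after quantile normalization (left) and with the signals as deposited (right). The dashed line is the median of all tested genes, -0.02 on the left and 0.34 on the right. Idh3a and Fh1 are the highest in both panels, and their intervals lie above 0 on the left.

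The 9 genes can be set beside the rest of the cycle. Among 11 tested genes of the other cycle steps and of the pyruvate and 2-oxoglutarate dehydrogenase complexes, Dld, the dihydrolipoamide dehydrogenase shared by these complexes, rose by 0.70 ± 0.10 (SE; limma adjusted p = 0.0169) and Dlst, the succinyl transferase of the 2-oxoglutarate complex, rose by 0.66 ± 0.15 (SE; limma adjusted p = 0.0406). None passed as lower, though 2 of the 11 were below 0. The median of the 11 was 0.14, and the succinate dehydrogenase gene Sdhc was at 0.35 (limma adjusted p = 0.0615). Without 1 sample the count of 2 was 0 (without KO 7) to 2 (without KO 6). Dld passed in 6 of the 7 such fits and Dlst in 1, and Dlst was at 0.42 as the mean of its probe sets (limma adjusted p = 0.178). Among 13 tested genes linked to the cycle by cytosolic counterparts, supply of intermediates or transport, the mitochondrial pyruvate carrier gene Mpc1 rose by 0.61 ± 0.092 (SE; limma adjusted p = 0.0199) and the mitochondrial aspartate aminotransferase gene Got2 rose by 0.56 ± 0.11 (SE; limma adjusted p = 0.0308). None passed as lower, though 6 of the 13 were below 0. The median of the 13 was 0.02, and the dicarboxylate carrier gene Slc25a10 was at -0.44 (limma adjusted p = 0.235). Without 1 sample that count was 0 or 1, and Mpc1 passed in 4 of these 7 fits while Got2 passed in 0. Whether these genes differ from the 9 was not tested.

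The cytosolic relatives of the 9 differed little or varied widely. Cytosolic malate dehydrogenase gene Mdh1 was at -0.02 ± 0.10 (SE; limma adjusted p = 0.901) and the cytosolic aconitase gene Aco1 at 0.02 ± 0.10 (SE; limma adjusted p = 0.937). Cytosolic isocitrate dehydrogenase gene Idh1 was at 0.30 ± 0.23 (SE; limma adjusted p = 0.441).

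Across the 7 arrays, the genes outside the 9 whose centred values lay nearest the mean centred profile of the 9 were Ndufs3, a complex I subunit (root mean square difference 0.036 log2 units), Rpl41, a ribosomal protein (0.038), Map2k1, the kinase MEK1 (0.039), Mbd2, a methyl-CpG-binding protein (0.042), and Cbfb, a partner of RUNX factors (0.042). The median over all tested genes was 0.22. The 9 genes themselves lay between 0.071 (Idh3b) and 0.22 (Suclg1) from their own mean. The 5 nearest genes differed by 0.15 to 0.22 between KO and WT, a size that follows from how they were chosen, and none passed in limma.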

How the data were processed

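RNA from sorted LSK cells of 4 Lkb1 KO and 3 Lkb1 WT samples was measured on 1 array each. Per the labels' protocols, each sample held 15000 to 20000 sorted cells, and roughly 10 ng of RNA went into amplification before biotin labelling. The deposited value of a probe set is its signal intensity, not log-transformed. MAS5 is the tool per the submitters' processing notes, and its version, settings and scaling target are not given in these sources. Since the arrays differed in brightness, signals were quantile-normalized over non-control probe sets and analysed as log2(signal + 16).

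Gene names came from the platform annotation (20380 with 1 symbol, 691 with several, which were not used, and 1555 with none). A probe set entered if its mean exceeded that of 40% of the 22626 non-control probe sets, and the brightest stood for its gene, 8077 genes in all. The background level, 13.64, is the 95th percentile of 189 readings of 27 controls for transcripts that were not added. The genotypes were compared in R 4.3.3 with limma 3.58.1 (5 residual degrees of freedom, no covariate), with Benjamini-Hochberg adjustment over all genes, and single values by two-sided exact permutation tests. The number of arrays limits the precision. The fit was tested on simulated data.

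The 9 genes, the lists and the tests were chosen with earlier results of these data known. Named genes are the 9, pathway list genes past the threshold, the 3 of lowest p per pathway list and 2 per marker list, Stk11, and the 5 of nearest profile. Mdh1, Aco1, Idh1 and Suclg2 were named outside this rule as relatives of the 9, and Itgam, Elane and marker genes given by the number of arrays above background were named after their values were seen. Alternatives were other scalings, pseudocounts, filters, probe set rules, a replicate block, the Actb end ratio in the model, and each sample left out. The fit with every probe set as its own row without 1 sample, or in other scalings, was added after seeing the data.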

Additional observations from a re-analysis of the deposited data

How the results depend on the processing

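No member passed in the main analysis or with cyclic loess, a pseudocount of 1, no filter, the mean of probe sets per gene, the replicate block or the Actb ratio. The number that passed as higher was 5 as deposited, 2 with median centring, 2 with a pseudocount of 64, 2 with the 60th percentile filter (Idh3a and Fh1 in these 3), 1 with every probe set as its own row (the dimmer Mdh2 probe set) and 0 to 1 without 1 sample. None passed as lower in any of them. The median of the 9 genes was 0.59 as deposited and 0.32 with median centring, and ran from 0.11 (without KO 7) to 0.23 (without WT 7) without 1 sample. All tested genes gave 199 higher and 238 lower. These counts were 1372 and 43 as deposited (97.0% higher, against 45.5%), 545 higher and 166 lower with median centring (76.7% higher), 322 and 372 with a pseudocount of 64, 18 and 38 with no filter, 356 and 355 with the 60th percentile filter, 0 and 1 with the replicate block, 0 and 0 with the Actb ratio, and 8 to 76 higher and 35 to 117 lower without 1 sample. With the Actb ratio, 1 of the 9 was higher at an unadjusted limma p under 0.05 and none lower, against 3.89% and 4.94% of all tested genes. This ratio did not overlap between the groups, so the fit with it can hardly tell it apart from genotype. Idh3a was at 0.64 ± 0.22 (SE) there, against 0.45 ± 0.11 (SE) in the main analysis. The loss of calls in that fit therefore cannot be assigned to either. The other cycle genes that passed as higher were 2 in the main analysis and 4 as deposited. They were 3 with median centring, a pseudocount of 64 or the 60th percentile filter. The count was 1 with a pseudocount of 1, no filter, the mean of probe sets or every probe set. It was 0 with the replicate block or the Actb ratio, and 0 to 2 without 1 sample. Linked genes were 2 in the main analysis and 3 as deposited. Their count was 0 with no filter, the replicate block or the Actb ratio, and 0 to 1 without 1 sample.

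Signs changed for 3 of the 9 genes and for Kit, which was at 0.012 as deposited. Cs was at 0.34 as deposited, 0.076 with median centring, 0.16 as the mean of probe sets, and -0.038 to 0.039 without 1 sample. Idh3g was at -0.067 ± 0.18 (SE) with the Actb ratio. Suclg1 was at -0.26 ± 0.33 (SE) with the Actb ratio and -0.048 to 0.32 without 1 sample. The causes were not tested. Numbers 5 to 7 occur in both groups, and the deviations of same-numbered samples correlated at 0.029, 0.099 and 0.050 over genes. These deviations were taken after quantile normalization, which removes any shared brightness. They therefore cannot decide whether the numbers pair the samples, and this is not known here. KO 4 carries no weight in the replicate block.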

Other observations

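The subunits and relatives of the 9 genes were also compared within each array, as the log2 value of one gene minus that of its partner, for 6 pairs chosen by their biochemical partnership with the single-gene values known. Idh3a minus Idh3b was -1.78 ± 0.043 (SD, n = 4) on KO arrays and -2.15 ± 0.27 (SD, n = 3) on WT arrays, higher in 4 of 4 KO arrays than in each WT array by a margin of only 0.0029 (exact permutation p = 0.0286, Benjamini-Hochberg adjusted p = 0.171 over the 6 pairs; 0.0857 with signals as deposited). Idh3a minus Idh3g differed by 0.38 with overlapping groups (exact permutation p = 0.0857, adjusted 0.257). With signals as deposited this pair differed by 0.52 (exact permutation p = 0.0286, adjusted 0.0857). The remaining pairs overlapped. Sucla2 minus Suclg1 differed by 0.04, Sucla2 minus Suclg2 by 0.22, Idh2 minus Idh1 by -0.01 and Mdh2 minus Mdh1 by 0.18 (exact permutation p from 0.229 to 0.943). No pair passed after adjustment. Probe sets of different genes differ in response, so these values compare changes and not amounts of the subunits.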
